A study of Mus musculus with 12 samples.

Results

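Matrix proteoglycans and matricellular proteins were followed through 4 cell populations sorted from the arteries of mouse embryos. The genes are the small leucine-rich proteoglycans biglycan (Bgn), decorin (Dcn) and lumican (Lum), the large hyaluronan-binding proteoglycan versican (Vcan), fibronectin (Fn1), the matricellular proteins tenascin C (Tnc), thrombospondin 1 (Thbs1), osteonectin (Sparc) and periostin (Postn), and the calcification inhibitor matrix Gla protein (Mgp). They were chosen by gene symbol, and 10 of the 33531 genes with deposited values are these.

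The extracellular matrix around an artery holds fibrous proteins, to which proteoglycans add a core protein with sugar chains. Decorin and lumican bind collagen fibrils and are made mostly by fibroblasts and other mesenchymal cells, whereas fibronectin, osteonectin and biglycan are also made by endothelium. Matricellular proteins such as tenascin C and thrombospondin 1 bind matrix and cell surface receptors and change how cells attach, rather than building the scaffold themselves.

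All embryos were at embryonic day 11.5, when clusters of blood-forming cells bulge from the wall of the great arteries. All of them carried the Ly6a-GFP transgene, a reporter of the gene for the stem cell antigen Sca-1. They came from a cross of C57BL/6 x 129S1/SVImJ F1 mothers to Tg(Ly6a-GFP) fathers (strain background B6129S), and 122 of them gave the arteries (dorsal aorta, umbilical, vitelline), which were dissociated with collagenase. Cells positive for CD31, CD144 (VE-cadherin) and ESAM were sorted as hematopoietic cluster cells (HC) where positive for c-Kit and as endothelial cells (EC) where negative, and both kinds were then divided by GFP fluorescence. Sorting yielded 53000 HC with GFP and 413000 without, and 377000 EC with GFP and 791000 without. Each population was pooled into 3 independent biological samples, and the number of embryos and cells in a pool is not stated. Since every group carries the transgene, none stands for animals without it, and every library stands for a pool and not for 1 embryo.

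Expression was given as FPKM, fragments per kilobase of transcript scaled to the mapped fragments of the library. Read numbers could not be recovered from these values, so the depth is unknown. Library sums ranged from 555675 to 691948 FPKM. Across tested genes, which are not independent replicates, Pearson's r of log2(FPKM + 1) was 0.956 to 0.979 for the 12 pairs of replicates. Ly6a was at 3.57 to 7.09 FPKM in GFP+ HC and 0.0538 to 1.47 FPKM in GFP- HC. In EC, Ly6a was at 8.42 to 9.05 FPKM in GFP+ and 0.0585 to 1.37 FPKM in GFP- libraries. The 6 endothelial markers (Pecam1, Cdh5, Esam, Tek, Kdr and Emcn) were above 0 in each population. Pecam1, Cdh5 and Esam encode the sorted antigens CD31, CD144 and ESAM, so their presence is no separate check of identity. The summed level of the 6 was 1583 to 1789 FPKM in GFP+ HC and 1216 to 1658 FPKM in GFP- HC. In EC it was 2334 to 2448 FPKM in GFP+ and 1458 to 1838 FPKM in GFP- libraries. Markers of other cells were present too, and the 7 erythroid markers summed to 776 to 1065 FPKM in GFP+ HC, 5828 to 9036 FPKM in GFP- HC, 875 to 2250.0 FPKM in GFP+ EC and 3145 to 7241 FPKM in GFP- EC. Mitochondrial genes held 3.8 to 4.96% of the summed FPKM in GFP+ HC, 5.11 to 5.73% in GFP- HC, 4.66 to 6.47% in GFP+ EC and 8.53 to 8.76% in GFP- EC. In such bulk samples, fewer cells of a type and less RNA per cell cannot be told apart.

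Sparc was the most abundant of the 10 genes in every library, at 53.7 to 71.7% of their summed FPKM, and its mean ranked between position 93 in GFP+ EC and position 155 in GFP+ HC among all genes. Together the genes summed to 856, 796 and 799.9 FPKM in GFP+ HC and 1073, 862 and 1146 FPKM in GFP- HC. In EC they summed to 1511, 1447 and 1649 FPKM in GFP+ and 1437, 986 and 1554 FPKM in GFP- cells, so each GFP+ EC library was above each GFP+ HC library. Tnc was the lowest, with population means of 1.91 FPKM in GFP+ HC, 4.03 FPKM in GFP- HC, 1.98 FPKM in GFP+ EC and 3.74 FPKM in GFP- EC. The spread within a population, as the pooled SD of log2(FPKM + 1), was 0.88 for Dcn, 0.80 for Lum and 0.81 for Postn, and 0.10 for Bgn, 0.14 for Sparc and 0.20 for Fn1.

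**Figure D1:**
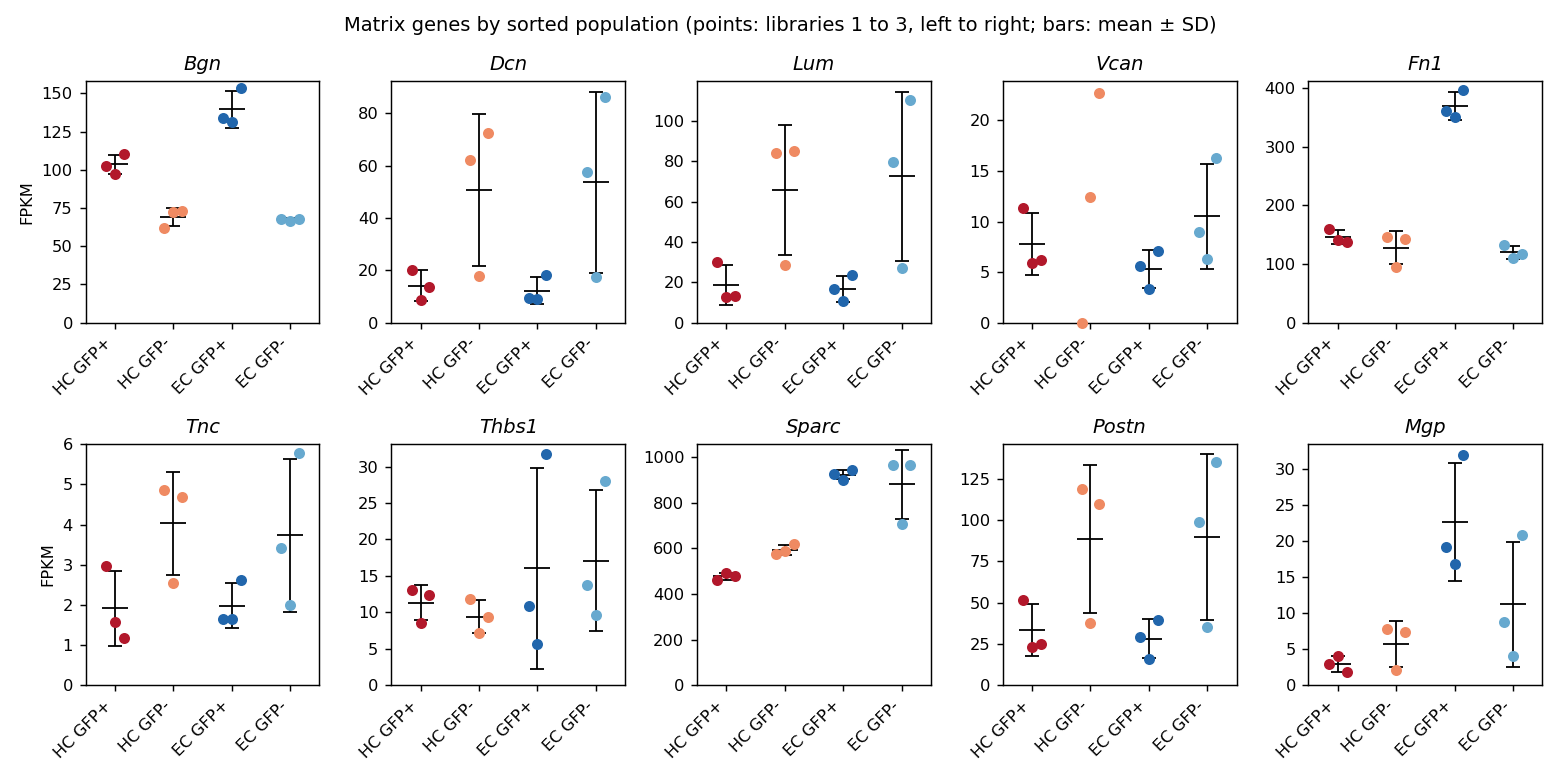
FPKM of each gene (vertical axis, linear from 0, scaled per gene) in the 4 populations, with each point a library (replicates 1 to 3 from left to right) and bars for the mean ± SD of 3 libraries. Bgn and Fn1 peak in GFP+ EC at means of 139.5 and 369.8 FPKM, Sparc is highest in both EC populations, and Dcn, Lum and Postn scatter widely in the GFP- populations. Vcan is listed at 0 in 1 GFP- HC library, where no mean or SD is drawn.

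Biglycan, a proteoglycan of the vessel wall and of bone, was the most regular of the 10 genes. In HC, Bgn read 103, 97.5 and 110.2 FPKM in the GFP+ libraries and 62.0, 72.2 and 73.2 FPKM in the GFP- libraries. In EC, Bgn read 134, 131 and 154 FPKM in the GFP+ libraries and 67.8, 66.2 and 67.8 FPKM in the GFP- libraries. All 6 GFP+ libraries lay above all 6 GFP- libraries, and all 3 GFP+ EC libraries lay above the GFP+ HC libraries. In HC, Bgn averaged 103.5 ± 6.41 FPKM in GFP+ and 69.1 ± 6.19 FPKM in GFP- cells (SD, n = 3 each). This was a rise of 0.58 ± 0.085 on the log2(FPKM + 1) scale (estimate ± standard error, here and in later differences), a ratio of 1.5 (limma, Benjamini-Hochberg adjusted p = 0.00292). In EC the means were 139.5 ± 12.2 FPKM in GFP+ and 67.3 ± 0.925 FPKM in GFP- cells, a rise of 1.04 ± 0.085 and a ratio of 2.07 (limma, adjusted p = 2.3e-05). Among GFP+ cells Bgn was lower in HC than in EC, by a log2 difference of -0.43 ± 0.085 (limma, adjusted p = 0.00712). Among GFP- cells the log2 difference of HC minus EC was 0.04, with a 95% confidence interval of -0.15 to 0.22. The GFP difference in HC minus that in EC was -0.46 ± 0.12 (limma, adjusted p = 0.133), and it passed the threshold where libraries were scaled to an equal sum of FPKM (-0.62, adjusted p = 0.0498).

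The upstream bases of Bgn are shown because it rose with GFP in both cell types, and those of Sparc because it was the most abundant member and did not pass the threshold between GFP+ and GFP- cells of either type. Each is the 250 bases before the gene's start in RefSeq on GRCm38.p6, 5′ to 3′ on the gene's strand, Bgn at chrX:73483351-73483600 (plus strand) and Sparc at chr11:55420081-55420330 (minus strand). Capitals mark matches to 3 core promoter motifs searched on both strands, the TATA box (TATAAA), the GC box (GGGCGG) and the CCAAT box (CCAAT), which occur in 12.4%, 32.7% and 33.8% of 32851 such promoters.
Bgn: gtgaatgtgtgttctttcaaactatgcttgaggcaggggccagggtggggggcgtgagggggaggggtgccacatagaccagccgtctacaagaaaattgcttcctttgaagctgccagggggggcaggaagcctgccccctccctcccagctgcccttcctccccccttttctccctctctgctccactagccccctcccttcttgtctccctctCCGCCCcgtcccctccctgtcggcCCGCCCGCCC
Sparc: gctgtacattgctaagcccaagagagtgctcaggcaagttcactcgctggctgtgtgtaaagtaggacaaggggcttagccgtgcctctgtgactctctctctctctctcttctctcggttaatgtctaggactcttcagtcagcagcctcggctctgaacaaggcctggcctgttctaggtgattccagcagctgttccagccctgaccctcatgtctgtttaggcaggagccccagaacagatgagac
The Bgn window holds 3 GC boxes, all read on the minus strand and starting 34, 10 and 6 bases before the gene, the last 2 overlapping each other. In that window 64.4% of the bases are G or C. The Sparc window holds none of the 3 motifs and has 54.0% G or C. RefSeq promoters were matched for 5 of the 10 genes (Bgn, Vcan, Tnc, Sparc and Postn). GC boxes also occurred in the windows of Vcan and Tnc, which did not pass the threshold between GFP+ and GFP- cells of either type. A match describes the letters only, and no factor binding was measured here.

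Decorin and lumican, which limit the width of collagen fibrils, showed another pattern, with their highest values in GFP- libraries of both cell types. In HC, Dcn read 20.2, 8.78 and 13.5 FPKM in the GFP+ libraries and 62.0, 17.8 and 72.5 FPKM in the GFP- libraries. In EC, Dcn read 9.51, 8.92 and 18.2 FPKM in the GFP+ libraries and 57.5, 17.4 and 86.3 FPKM in the GFP- libraries. Dcn was thus highest in replicates 1 and 3 of both GFP- populations, and Lum had the same shape. In HC, Lum read 30.0, 12.6 and 13.2 FPKM in the GFP+ libraries and 84.2, 28.7 and 84.9 FPKM in the GFP- libraries. In EC, Lum read 16.6, 10.6 and 23.5 FPKM in the GFP+ libraries and 79.8, 27.3 and 110.5 FPKM in the GFP- libraries. In both GFP- populations the libraries numbered 1 and 3 were high and the one numbered 2 was low, close to the GFP+ libraries. The GFP+ and GFP- ranges overlapped for both genes in HC and for Dcn in EC, and were separate for Lum in EC. Lum was lower in GFP+ EC, at 16.9 ± 6.47 FPKM against 72.5 ± 42.05 FPKM in GFP- EC (SD, n = 3 each), a log2 difference of -1.89 ± 0.56 (limma, adjusted p = 0.047). That call was lost in 14 of 21 alternative settings, with adjusted p between 0.00634 and 0.166 over all of them. It was lost without any 1 of the 3 GFP+ EC libraries (-1.91, -1.61 and -2.15 without replicates 1, 2 and 3), without replicate 1 or 3 of GFP- EC (-1.72 and -1.48), and, at an unmoved difference, without replicate 2 or 3 of GFP+ HC or 1 or 3 of GFP- HC (adjusted p = 0.0543 to 0.0585). The other GFP differences did not pass in the main fit. Dcn differed by -1.62 in HC (limma, adjusted p = 0.2) and -1.85 in EC (limma, adjusted p = 0.0715). Lum differed by -1.73 in HC (limma, adjusted p = 0.131). All of these passed with the replicate number as a block, for which values are given with the alternatives at the end. Without replicate 2 of GFP- EC the Dcn difference in EC was -2.50 (limma, adjusted p = 0.0157). Without replicate 2 of GFP- HC it stayed at -1.85, with an adjusted p of 0.0413 (limma). Between HC and EC of the same GFP state Dcn and Lum differed by at most 0.20 on the log2 scale and did not pass, with confidence intervals of more than 1 log2 unit to either side.

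Periostin, a matricellular protein that binds collagen and is made by perivascular and valve mesenchyme, followed Dcn and Lum. In HC, Postn read 51.4, 23.4 and 25.2 FPKM in the GFP+ libraries and 119, 37.5 and 109.9 FPKM in the GFP- libraries. In EC, Postn read 29.3, 15.9 and 39.8 FPKM in the GFP+ libraries and 98.8, 35.4 and 135 FPKM in the GFP- libraries. The libraries numbered 2 were again the lowest of each population, and the GFP+ and GFP- ranges overlapped in both cell types. Its GFP difference was -1.31 ± 0.56 in HC (limma, adjusted p = 0.265) and -1.52 ± 0.56 in EC (limma, adjusted p = 0.0998), and neither passed in the main fit. Both passed with the replicate number as a block, as given with the alternatives at the end. Without replicate 2 of GFP- EC, the EC difference was -2.08 (limma, adjusted p = 0.0268).

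Summed levels of smooth muscle and mesenchyme markers went with Dcn, Lum and Postn. The 12 markers (Acta2, Tagln, Myh11, Cnn1, Pdgfra, Pdgfrb, Col1a1, Col1a2, Col3a1, Twist1, Prrx1 and Tbx18), none at 0 throughout a population, summed to 543, 253 and 331 FPKM in GFP+ HC and 1218, 417 and 1210.0 FPKM in GFP- HC. In EC they summed to 337, 255 and 490.5 FPKM in GFP+ and 835, 259.7 and 1101 FPKM in GFP- cells. The sum was thus low in the same GFP- libraries, those numbered 2, in which the 3 matrix genes were low. Much of the sum came from the fibrillar collagen genes Col1a1, Col1a2 and Col3a1. In replicate 1 of GFP- HC these read 373, 253 and 314 FPKM, of a sum of 1218 FPKM. Single values of the other markers are not given. None of the 11 tested markers passed in any of the 5 comparisons (limma), with 3 lower at an unadjusted p under 0.05 in each GFP comparison and 0 in the other comparisons. The share of all tested genes at that unadjusted threshold was not counted. The median GFP difference of the tested markers was -0.78 in HC and -0.61 in EC. The part of such cells in the Dcn, Lum and Postn values was not tested.

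**Figure D2:**
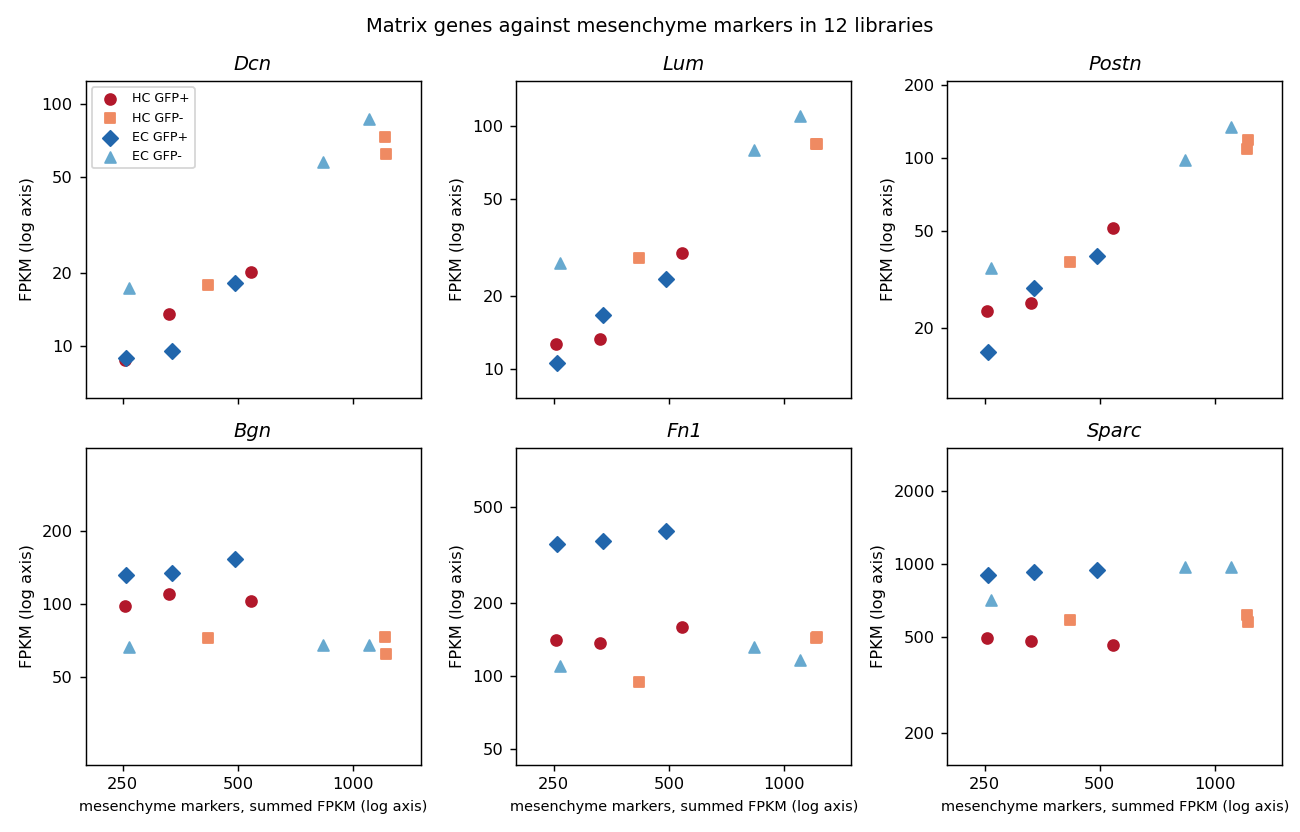
FPKM of Dcn, Lum, Postn, Bgn, Fn1 and Sparc (vertical axes, logarithmic) against the summed FPKM of 12 smooth muscle and mesenchyme markers (horizontal axes, logarithmic), with each point 1 of the 12 libraries and colour and shape giving the population. Dcn, Lum and Postn are highest in the 4 GFP- libraries with sums of 835 to 1218 FPKM, whereas Bgn separates by GFP, with 97.5 to 154 FPKM in GFP+ and 62.0 to 73.2 FPKM in GFP- libraries.

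Ratios within a library showed how tightly these genes kept together over the 12 libraries, as a description. Lum to Dcn ran from 0.978 to 1.75 (median 1.37), Postn to Lum from 1.22 to 1.91 (median 1.46) and Postn to Col3a1, a fibrillar collagen chain, from 0.336 to 0.465 (median 0.388). By contrast, Bgn to Dcn ran from 0.786 to 14.7, an 18.7-fold range between 2 proteoglycans of the same class. The genes nearest in pattern were found by the smallest root mean square difference of centred log2(FPKM + 1) over the 12 libraries. For Lum (distances 0.24, 0.31 and 0.31) and Postn (0.11, 0.16 and 0.18) they were Fmod (fibromodulin, a further small leucine-rich proteoglycan), Col3a1 and Col1a2. For Dcn they were Fmod, Prss35 and Col1a2 (0.26, 0.30 and 0.30), and for Bgn they were Ddit4, Ip6k3 and Ctnnd2 (0.11, 0.12 and 0.13). In RefSeq (GRCm38.p6), Dcn and Lum lie next to each other in a row with Kera and Epyc, which encode 2 further proteoglycans of the class. Kera reached at most 0.194 FPKM and Epyc at most 0.707 FPKM in any library, below every value of Dcn and Lum.

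Versican, the hyaluronan-binding proteoglycan of loose embryonic matrix, was low and irregular. In HC, Vcan read 11.3, 5.87 and 6.19 FPKM in the GFP+ libraries and 0, 12.4 and 22.8 FPKM in the GFP- libraries. In EC, Vcan read 5.57, 3.29 and 7.09 FPKM in the GFP+ libraries and 8.93, 6.31 and 16.3 FPKM in the GFP- libraries. With the 0 included, the populations overlapped throughout, and the gene passed in none of the 5 comparisons (limma, adjusted p between 0.602 and 0.899). In HC the overlap by GFP rested on that 0, since the other GFP- HC libraries (12.4 and 22.8 FPKM) were above all GFP+ HC libraries. The 0 may be a failed estimate. Its library was the only 1 listing a 0 for 5 genes that averaged 5 FPKM or more elsewhere, and over the 12 libraries that number ran from 0 to 11. With the 0 treated as missing, the log2 difference of GFP+ to GFP- HC was -1.07 ± 0.42 (limma, adjusted p = 0.219), against 0.31 ± 0.91 with it. The span of Vcan also overlaps the pseudogene Gm16318 and the noncoding gene Gm4117 in RefSeq (GRCm38.p6). Without a stated strand setting, reads from bases that these genes may share cannot be told apart. The nearest gene to Vcan, Tcof1, was at a distance of 0.67.

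Fibronectin, the adhesive glycoprotein that integrins bind on the outside of cells, separated GFP+ EC from the other 3 populations. In HC, Fn1 read 159.8, 140.5 and 137 FPKM in the GFP+ libraries and 145, 94.9 and 143 FPKM in the GFP- libraries. In EC, Fn1 read 361, 351 and 397 FPKM in the GFP+ libraries and 132, 110.5 and 117 FPKM in the GFP- libraries. All 3 GFP+ EC libraries were above every other library. In order of level GFP+ HC, GFP- HC and GFP- EC followed, each overlapping the next. In EC, Fn1 averaged 369.8 ± 24.3 FPKM in GFP+ and 119.9 ± 11.1 FPKM in GFP- cells (SD, n = 3 each), a rise of 1.62 ± 0.15 on the log2 scale and a ratio of 3.08 (limma, adjusted p = 5.1e-05). In HC the means were 146 ± 12.3 FPKM in GFP+ and 128 ± 28.5 FPKM in GFP- cells, a log2 difference of 0.21 ± 0.15 that did not pass (limma, adjusted p = 0.532), with a 95% confidence interval of -0.11 to 0.53. The GFP difference in HC minus that in EC was -1.41 ± 0.21 (limma, adjusted p = 0.0147), with an interval of -1.86 to -0.95. It was -1.38 (limma, adjusted p = 0.0534) without replicate 2 of GFP+ HC and -1.355 (limma, adjusted p = 0.0511) without replicate 3 of GFP+ EC. Among GFP+ cells HC had less Fn1 than EC, with a log2 difference of -1.34 ± 0.15, a 2.54-fold lower level (limma, adjusted p = 0.000248). Among GFP- cells the log2 difference of HC minus EC was 0.07, with an interval of -0.25 to 0.39. The nearest genes in pattern to Fn1 were Fbn1 (0.17), which encodes the microfibril protein fibrillin 1, Vegfa (0.20), an endothelial growth factor, and Rhpn2 (0.20).

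Endothelial markers moved in the same direction as Bgn and Fn1 in EC. Of the 6, Tek, Emcn, Cdh5, Kdr and Pecam1 were higher in GFP+ EC than in GFP- EC (5 of 6, median log2 difference 0.49), with the Cdh5 call lost in 7 of 21 alternatives. Among GFP+ cells Pecam1, Tek, Cdh5 and Esam were lower in HC than in EC (4 of 6, median -0.61). Their part in the values of Bgn, Fn1, Sparc and Mgp was not tested. The ratio of Bgn to Fn1 within a library ran from 0.371 to 0.804, a 2.17-fold range.

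Osteonectin, a collagen- and calcium-binding protein that endothelial and mesenchymal cells secrete, divided the samples by cell type. In HC, Sparc read 461, 493 and 479 FPKM in the GFP+ libraries and 576, 587 and 618 FPKM in the GFP- libraries. In EC, Sparc read 924, 902 and 944 FPKM in the GFP+ libraries and 967, 707 and 967 FPKM in the GFP- libraries. Every EC library was above every HC library, and the GFP- HC libraries were all above the GFP+ HC libraries. Among GFP+ cells it averaged 478 ± 16.1 FPKM in HC and 923 ± 21.0 FPKM in EC (SD, n = 3 each), a log2 difference of -0.95 ± 0.11 and a 1.93-fold lower level in HC (limma, adjusted p = 0.000292). Among GFP- cells it averaged 594 ± 21.5 FPKM in HC and 880.2 ± 149.7 FPKM in EC, a difference of -0.55 ± 0.11 and a 1.48-fold lower level in HC (limma, adjusted p = 0.0185). The second call was lost without replicate 1 or 3 of GFP- HC (-0.53 and -0.58) and without replicate 1 or 3 of GFP- EC (-0.48 each), with adjusted p of 0.0574 to 0.0947 (limma). The GFP difference in HC was -0.31 ± 0.11 (limma, adjusted p = 0.156), and it passed without replicate 2 of GFP- EC, whose removal left the value at -0.31 (adjusted p = 0.0116). In EC the GFP difference was 0.08 ± 0.11 (limma, adjusted p = 0.665), with an interval of -0.15 to 0.32. It passed as higher in GFP+ EC after scaling to an equal sum (0.29, adjusted p = 0.0461) and after quantile normalization (0.395, adjusted p = 0.023). The nearest genes in pattern were Tbxa2r (0.12), the thromboxane receptor, Id3 (0.14), an inhibitor of basic helix-loop-helix factors, and Lrig1 (0.16).

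Thrombospondin 1, stored in platelets and also made by endothelium, varied most among replicates of EC. In HC, Thbs1 read 13.1, 8.58 and 12.4 FPKM in the GFP+ libraries and 11.8, 7.18 and 9.30 FPKM in the GFP- libraries. In EC, Thbs1 read 10.9, 5.61 and 31.7 FPKM in the GFP+ libraries and 13.7, 9.60 and 28.0 FPKM in the GFP- libraries. Replicate 3 of both EC populations was the highest library of its population, replicate 2 was the lowest in all 4 populations, and the groups overlapped in every comparison. None of its differences passed (limma, adjusted p between 0.517 and 0.867). The 7 megakaryocyte and platelet markers, none at 0 throughout a population, summed to 65.8, 19.6 and 226 FPKM in GFP+ EC and 135, 80.9 and 268 FPKM in GFP- EC, highest in the same replicates 3 and lowest in the replicates 2. In HC they summed to 156, 107 and 273 FPKM in GFP+ and 226, 100.4 and 165 FPKM in GFP- cells. The highest sum of the 12 libraries was thus in replicate 3 of GFP+ HC, where Thbs1 was at 12.4 FPKM. Of that sum Pf4, 1 of these markers, held 245 FPKM. The part of platelets or their precursors in the Thbs1 values was not tested. The genes nearest to Thbs1 in pattern were F2rl2 (0.22), Gp5 (0.23), a platelet glycoprotein, and Tmem40 (0.29).

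Tenascin C, a large glycoprotein made where tissues remodel, was close to the lower limit of the tested range. In HC, Tnc read 2.97, 1.58 and 1.19 FPKM in the GFP+ libraries and 4.87, 2.55 and 4.68 FPKM in the GFP- libraries. In EC, Tnc read 1.65, 1.66 and 2.62 FPKM in the GFP+ libraries and 3.42, 2.01 and 5.77 FPKM in the GFP- libraries. The ranges overlapped in each comparison, and the GFP difference was -0.80 ± 0.32 in HC (limma, adjusted p = 0.229) and -0.61 ± 0.32 in EC (limma, adjusted p = 0.244). The span of Tnc overlaps that of 8030451A03Rik, and the span of Postn that of Gm31095, in RefSeq (GRCm38.p6). Reads from bases that such a pair may share cannot be told apart here. The genes nearest to Tnc in pattern were Dzip1 (0.12), Ptpn13 (0.13) and Wisp1 (0.14), a secreted matricellular protein of the CCN family.

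Matrix Gla protein, which keeps calcium from depositing in vessel walls and cartilage, had its highest level in GFP+ EC. In HC, Mgp read 3.01, 4.10 and 1.80 FPKM in the GFP+ libraries and 7.78, 2.12 and 7.34 FPKM in the GFP- libraries. In EC, Mgp read 19.2, 16.8 and 32.0 FPKM in the GFP+ libraries and 8.73, 4.06 and 20.8 FPKM in the GFP- libraries. All GFP+ EC libraries were above all HC libraries, while GFP- EC overlapped both with GFP+ EC and with GFP- HC. Among GFP+ cells it averaged 2.97 ± 1.15 FPKM in HC and 22.65 ± 8.16 FPKM in EC (SD, n = 3 each), a log2 difference of -2.56 ± 0.52 and a 7.62-fold lower mean in HC (limma, adjusted p = 0.0079). The log2 difference of HC minus EC among GFP- cells was -0.745 ± 0.52 (limma, adjusted p = 0.496). The GFP difference was -0.66 ± 0.52 in HC (limma, adjusted p = 0.593) and 1.15 ± 0.52 in EC (limma, adjusted p = 0.174), and the difference between these was -1.82 ± 0.74 (limma, adjusted p = 0.376). None of these values passed. Mgp had no close companion: its nearest genes in pattern were Dkk2 (0.475) and Wnt11 (0.53), a secreted inhibitor and a ligand of the Wnt pathway, and Cdh13 (0.57).

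Counted over the 10 genes, all of which passed the filter on low values and were tested, the comparison of GFP+ with GFP- HC called 1 higher (Bgn) and 0 lower. Over all 13278 tested genes 2.98% were called higher and 1.28% lower in that comparison (limma, adjusted p threshold of 0.05). At an unadjusted p under 0.05 (limma), 6 members passed, Bgn as higher and 5 as lower. The share of all tested genes at that unadjusted threshold was not counted, so this number is no result about the members. The median log2 difference of the members was -0.49, against 0.00 for all tested genes. Ranges did not overlap for 1 member as higher (Bgn) and 1 as lower (Sparc), where 13.0% and 10.5% of tested genes were separate as higher and lower. A count of 1 in 10 against such a background is no result about the members as a set.

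In EC, 2 members were higher in GFP+ cells (Fn1 and Bgn) and 1 was lower (Lum), where 6.96% of tested genes were called higher and 6.51% lower. The median difference was -0.44 for the members and -0.03 for all tested genes. Ranges were separate for 2 members as higher and 1 as lower, where 14.8% and 16.7% of tested genes were separate in these directions. Of all calls in EC, 51.6% were higher in GFP+ cells. With libraries scaled to an equal sum that share was 87.0% and the median of all tested genes was 0.14. Under that scaling 3 members were called higher (Bgn, Fn1 and Sparc) and 0 lower, since Lum lost its call (-1.69, limma, adjusted p = 0.0609). Over all genes tested under it, 1919 of 13284 were called higher and 286 lower.

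Among GFP+ cells, 4 members were lower in HC than in EC (Fn1, Sparc, Bgn and Mgp) and 0 were higher, where 6.09% of tested genes were called lower and 8.21% higher. The same 4 did not overlap between the groups, where 13.8% of tested genes were separate as lower, and the median difference was -0.12 for the members and 0.05 for all tested genes. The share of all calls that were higher in HC was 57.4%, and 47.1% after quantile normalization. Among GFP- cells, Sparc alone was lower in HC, 1 member of 10, where 1.93% of tested genes were called lower and 2.36% higher. Sparc was also the only member with separate ranges there, where 10.4% of tested genes were separate as lower, and the median was -0.06 for the members and 0.01 for all tested genes. With equal-sum scaling that median of all genes was 0.14, and the share of calls higher in HC was 81.8%, against 55.0% without it.

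For the difference of the GFP effects, HC minus EC, Fn1 was the 1 member called, as lower, where 0.339% of tested genes were called lower and 0.188% higher. The median of the members was -0.01 and of all tested genes 0.04, and with equal-sum scaling all tested genes had a median of -0.10. Of all calls there, 35.7% were higher, and 18.9% with equal-sum scaling. At an unadjusted p under 0.05, 4 members were lower: Fn1, Bgn, Sparc and Mgp. Here too the share of all tested genes at that threshold was not counted. The comparisons share libraries, so their counts are not independent of each other.

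**Figure D3:**
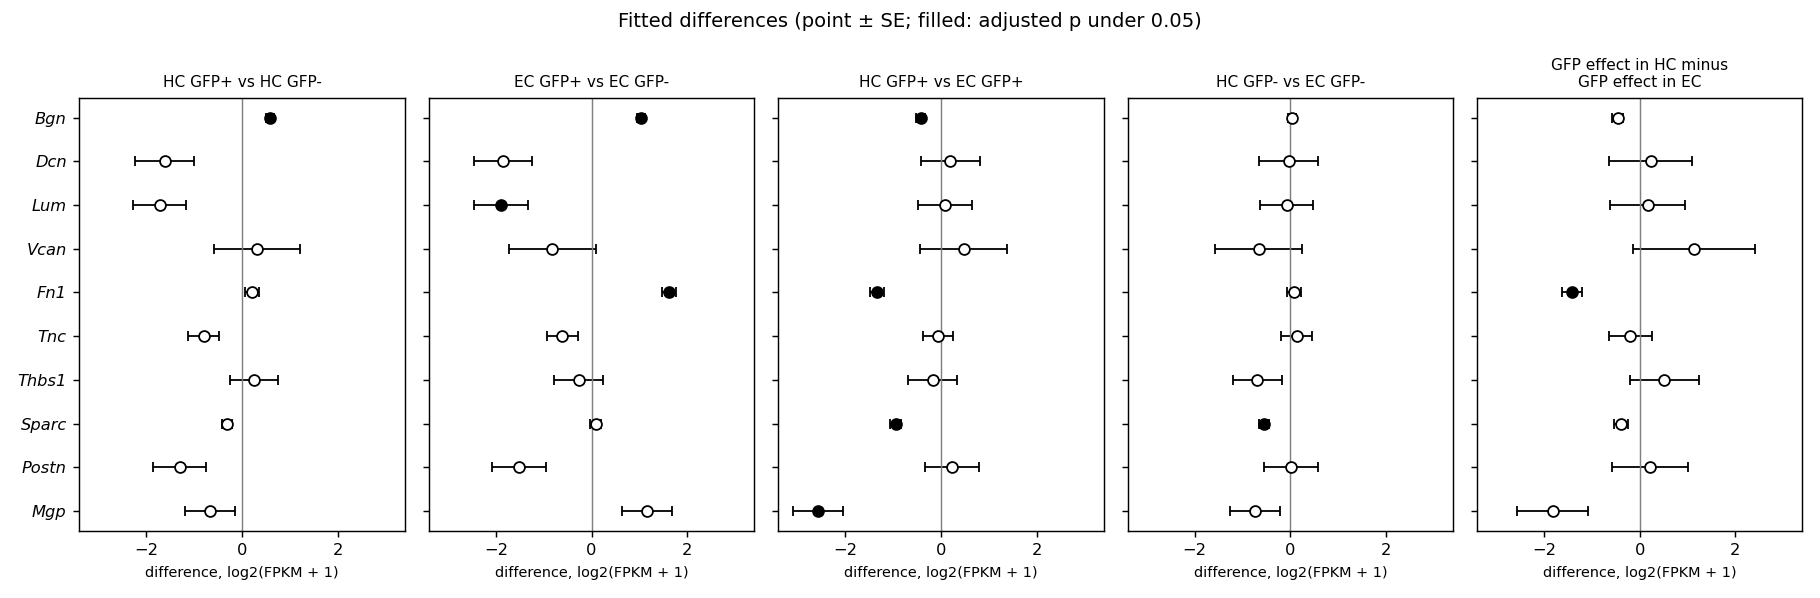
Fitted difference of each gene on the log2(FPKM + 1) scale (horizontal axes) in the 4 comparisons of populations and in the difference of GFP effects, with bars for the standard error of the limma fit, filled points past an adjusted p of 0.05 and open points not past it. Standard errors are small for Bgn, Sparc and Fn1 and large for Dcn, Lum, Postn and Vcan, and the filled point farthest from 0 is Mgp in GFP+ HC against GFP+ EC at -2.56.

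Companion genes from matrix lists were read from the same fit, and the shares of all tested genes called in each comparison are those given above. Of 13 tested heparan sulfate proteoglycans, which carry another sugar chain than Bgn or Dcn, 3 were higher and 0 lower in GFP+ EC against GFP- EC (median log2 difference 0.25, against -0.03 for all tested genes). Agrin (Agrn) averaged 154.0 ± 8.6 FPKM in GFP+ EC and 80.0 ± 8.62 FPKM in GFP- EC (log2 difference 0.94, limma, adjusted p = 0.000124). Col18a1, which encodes the collagen XVIII core protein, averaged 737 FPKM in GFP+ EC and 418 FPKM in GFP- EC (0.83 ± 0.105, limma, adjusted p = 0.000538). Syndecan 1 (Sdc1) averaged 69.9 ± 2.28 FPKM in GFP+ EC and 37.6 ± 7.84 FPKM in GFP- EC (0.90, limma, adjusted p = 0.0059). Between GFP+ HC and GFP+ EC, 4 of the 13 were lower in HC (Agrn, Sdc1, Col18a1 and Hspg2) and 0 were higher. In HC, 1 of 13 was higher with GFP (Agrn, 0.38, limma, adjusted p = 0.0499), a call kept in 6 of 21 alternatives. Among GFP- cells Agrn was also the 1 gene lower in HC than in EC (-0.48, limma, adjusted p = 0.0227), a call kept in 15 of 21. Of 5 tested small leucine-rich proteoglycans outside the members, 1 (Chad) was higher in GFP+ HC and none passed elsewhere. Of 3 tested hyaluronan-binding proteins and hyaluronan synthases, 1 (Hapln3) was higher in GFP+ EC.

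Of 21 tested relatives of the matricellular proteins, 4 were higher and 1 lower in GFP+ EC, and 2 were higher and 1 lower in GFP+ HC. In HC the calls of Fstl1 (higher) and Tgfbi (lower) were lost in 7 and 8 of 21 alternatives. Fstl1, a secreted relative of Sparc, averaged 367 ± 8.72 FPKM in GFP+ EC and 172 ± 8.13 FPKM in GFP- EC (log2 difference 1.09 ± 0.08, limma, adjusted p = 1.02e-05), the same direction as Fn1. Its GFP difference in HC minus that in EC also passed as lower, the only 1 of the 21 that did. Nov, a CCN family protein, was higher with GFP in HC, at 5.95 ± 1.44 FPKM in GFP+ and 2.41 ± 0.162 FPKM in GFP- cells (1.01 ± 0.17, limma, adjusted p = 0.00624). In EC it was at 7.23 ± 0.622 FPKM in GFP+ and 3.55 ± 0.718 FPKM in GFP- cells (0.86, limma, adjusted p = 0.00719). Among GFP+ cells, 3 of 21 were higher and 5 lower in HC than in EC, and among GFP- cells 2 were higher (Spp1 and Smoc1, the second lost in 10 of 21 alternatives) and 2 lower. Osteopontin (Spp1), a matricellular protein of macrophages and bone, was at 11.04 ± 2.83 FPKM in GFP- HC and 0.885 ± 0.318 FPKM in GFP- EC (2.66 ± 0.44, limma, adjusted p = 0.00992), a call lost without replicate 1 of GFP- HC (adjusted p = 0.0587). Macrophage markers moved with it, at sums of 256 to 771 FPKM in GFP- HC and 19.1 to 26.5 FPKM in GFP- EC, and their part was not tested.

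Of 21 tested receptors of these matrix proteins, 5 were higher and 1 lower in GFP+ EC, and 2 were higher and 0 lower in GFP+ HC. Cd44, the hyaluronan receptor, was higher with GFP in HC, at 22.3 ± 3.91 FPKM in GFP+ and 8.40 ± 2.66 FPKM in GFP- cells (1.34 ± 0.21, limma, adjusted p = 0.00375). It was also higher with GFP in EC, at 11.96 ± 1.37 FPKM in GFP+ and 4.15 ± 0.571 FPKM in GFP- cells (1.33, limma, adjusted p = 0.0019). The chains of the main fibronectin receptor were both higher in GFP+ EC. Itga5 was at 126 ± 4.48 FPKM in GFP+ and 84.6 ± 10.5 FPKM in GFP- EC (0.58, limma, adjusted p = 0.00286), and Itgb1 was at 405 ± 12.5 FPKM in GFP+ and 295 ± 27.2 FPKM in GFP- EC (0.46, limma, adjusted p = 0.00355). Among GFP+ cells both were lower in HC than in EC, by -0.70 (limma, adjusted p = 0.000883) and -0.43 (limma, adjusted p = 0.00446). Itga4, a chain of a further fibronectin receptor, found on blood cells, was higher in GFP+ HC, at 7.90 ± 0.981 FPKM in HC and 2.38 ± 0.318 FPKM in EC (1.40, limma, adjusted p = 0.000443). In all, 5 of 21 were higher and 4 lower in GFP+ HC against GFP+ EC, and 4 higher (Lyve1, Stab1, Itga4 and Cd44) and 0 lower in GFP- HC against GFP- EC. Of these 4 calls Cd44 was lost in 13 and Stab1 in 5 of 21 alternatives. Lyve1, which was higher in HC in both GFP states, is itself 1 of the 8 tested macrophage markers, all of which were higher in HC in both. Their sums were 230.2 to 1322 FPKM in GFP+ HC and 20.01 to 41.9 FPKM in GFP+ EC, and 256 to 771 FPKM in GFP- HC and 19.1 to 26.5 FPKM in GFP- EC, and the part of macrophages in the receptor counts was not tested.

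Among the matrix lists, that of proteases, their inhibitors and crosslinking enzymes had the most calls by GFP in EC. This list also holds the carboxylase gene Ggcx, which is among those called. Of 17 tested, 10 were higher and 0 lower in GFP+ EC (median 0.38), where 6.96% of all tested genes were called higher and 6.51% lower. Mmp2, a gelatinase that cleaves fibronectin among other substrates, averaged 186 ± 6.28 FPKM in GFP+ EC and 75.8 ± 4.63 FPKM in GFP- EC (1.28 ± 0.06, limma, adjusted p = 7.94e-07). In HC, Mmp2 averaged 109 ± 2.92 FPKM in GFP+ and 81.7 ± 1.36 FPKM in GFP- cells (0.42, limma, adjusted p = 0.00293). Tgm2, a transglutaminase that crosslinks fibronectin, averaged 70.3 ± 6.3 FPKM in GFP+ EC and 23.6 ± 1.06 FPKM in GFP- EC, a ratio of 2.98 (limma, adjusted p = 2.34e-05). In HC, Tgm2 averaged 53.3 ± 4.7 FPKM in GFP+ and 28.3 ± 5.76 FPKM in GFP- cells (0.90, limma, adjusted p = 0.00207). Ggcx, the carboxylase that modifies Mgp, was higher in GFP+ EC, at 12.4 ± 0.854 FPKM against 8.16 ± 0.595 FPKM in GFP- EC (0.55, limma, adjusted p = 0.00329). In GFP+ HC against GFP+ EC, 6 of 17 were lower and 0 higher. In GFP- HC against GFP- EC 1 was higher (Adamts9, a call lost in 15 of 21 alternatives) and 0 lower, and Mmp2 was the 1 gene of the list with a called difference of GFP effects. Of 22 tested enzymes that build glycosaminoglycan chains, 0 were called in HC by GFP (limma). At an unadjusted p under 0.05, 4 were lower and 0 higher, with the share of all tested genes at that threshold not counted. In EC, 2 were called higher and 2 lower with GFP (Chpf2 and B4galt7 higher, each lost in 4 of 21, and Ugdh, lost in 6 of 21, and Chst3 lower). Between cell types, 2 were lower in HC among GFP+ cells (Chpf2 and B4galt7) and 1 was higher in HC among GFP- cells (Chst11, a call lost in 12 of 21 alternatives).

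**Figure D4:**
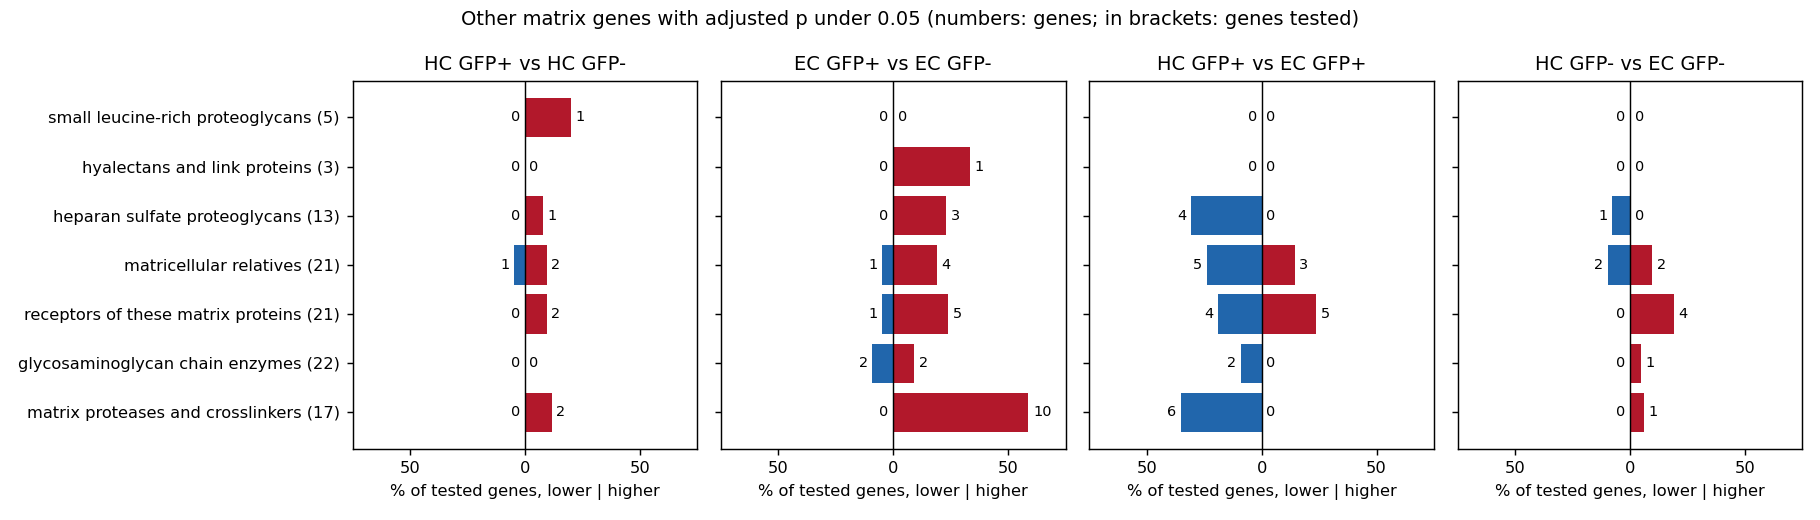
Share of the tested genes of each companion list past an adjusted p of 0.05 (horizontal axes, percent, lower to the left in blue and higher to the right in red) in the 4 comparisons of populations, with the number of genes at each bar and the number tested in brackets. In GFP+ EC against GFP- EC, the list of matrix proteases and crosslinkers, Ggcx included, has 10 higher and 0 lower of 17 tested. Over all tested genes 6.96% were called higher and 6.51% lower.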

How the data were processed

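Polyadenylated RNA of 12 libraries was measured, 3 in each of 4 sorted populations, with groups taken from the titles. The authors deposited an FPKM value for each gene symbol and library. The tools Cufflinks, featureCounts, DESeq and edgeR and the build mm9 are named per the submitters' processing notes. Not given in the sources used here are their versions and roles, the annotation, the aligner, any scaling and the strand setting. FPKM is relative to each library's total, so a few abundant genes can move all others, and the depth is unknown.

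Of 33531 genes, 13278 reached an FPKM of 1 in 3 or more libraries and entered the tests. The scale was log2(FPKM + 1), which understates changes of low genes, and the tool was limma 3.58.1 in R 4.3.3: 1 model of 4 group means over 12 libraries (8 residual degrees of freedom), empirical Bayes with an intensity trend, two-sided tests and Benjamini-Hochberg adjustment over all tested genes, with a threshold of 0.05. The script was tested on simulated data. The labels call the pools independent biological samples, and the spread behind each p-value is that between such pools.

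The 10 members and the companion and marker lists were chosen with earlier results of these data known. All members are named. Of a companion list, up to 3 genes per comparison were eligible for naming by order of p, if past the threshold with separate ranges and a higher group averaging at least 5 FPKM. Other names only complete a count of called genes. The 3 nearest genes in pattern are given for each member, except for Vcan, where the first is. In all, 21 alternatives were run: pseudocount 0.1, no filter, a mean FPKM of 5 or more, equal sums, quantile normalization, no trend, only the compared groups, a replicate block, each library left out in turn and, added after the data were seen, the Vcan 0 as missing. Promoter sequences and neighbouring genes came from RefSeq (GRCm38.p6), and no coordinates were moved between builds.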

Additional observations from a re-analysis of the deposited data

Results flagged for a closer look

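The effect of GFP on Fn1 differed between the cell types: the log2 difference of GFP+ to GFP- cells in HC minus that in EC was -1.41 ± 0.21 (limma, adjusted p = 0.0147). It was singled out because the test was of the difference between cell types itself. The GFP difference was 0.21 in HC and 1.62 in EC, and all 3 GFP+ EC libraries lay above all other libraries.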

How the results depend on the processing

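Of the 10 calls of members, 7 were kept in every alternative run (Bgn in HC and EC by GFP and in GFP+ HC against EC, Fn1 in EC by GFP and in GFP+ HC against EC, and Sparc and Mgp in GFP+ HC against EC), and no member changed sign of a called value. Lum in EC was lost in 14 of 21, Sparc in GFP- HC against EC in 5 of 21 and the Fn1 difference of effects in 2 of 20. Leaving out a library gave 1 to 2 members called in HC by GFP, 2 to 5 in EC by GFP, 4 throughout in GFP+ HC against EC, 0 to 1 in GFP- HC against EC and 0 to 1 for the difference of effects. With equal sums, 2 members were called lower for the difference of effects, Bgn joining Fn1, where 120 of 13284 tested genes were called lower and 28 higher. With only the compared groups in the fit, which leaves fewer samples, 0 were called in GFP- HC against EC (limma; 1 at an unadjusted p under 0.05 in the fit of all libraries). Whether the replicate numbers pair the samples was not settled. Within the 4 comparisons of populations, correlations of deviations over all tested genes between equally numbered libraries ran from -0.06 to 0.27, not all over 0.1. Between differently numbered libraries they ran from -0.22 to 0.22. Of the 12 libraries, 6 correlated best with one of their own number. For Dcn, Lum, Postn and Thbs1, replicate 2 was the lowest library in all 4 populations. With the replicate number as a block, 4 members were called in HC by GFP (limma, Dcn, Lum and Postn joining Bgn, adjusted p = 0.0307, 0.0181 and 0.0398). In EC 5 were called (limma, Dcn and Postn joining, adjusted p = 0.00918 and 0.0114). The shares of all tested genes called with the block, or with a library left out, were not counted. These member counts are therefore no result about the members as a set. The stricter filter left Tnc untested, and the difference of effects has no value with only the compared groups, since it uses all of them. With unknown depth, no limit of detection can be given for low genes such as Tnc and Vcan.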
